A study of Chromochloris zofingiensis with 6 samples.

Results

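Cz18 is read, from the prefix of the gene IDs, as 1 of the 19 chromosomes of the green microalga Chromochloris zofingiensis. Its members are all IDs that start with Cz18g, 233 of the 15364 IDs in the count table, of which 217 had enough reads to be tested. The chromosome was chosen by its share of IDs with higher counts in the levofloxacin samples of this same comparison, so the differences between the groups below are a description and support nothing further. RNA-seq was done on 3 levofloxacin and 3 control samples of strain ATCC 30412. Levofloxacin samples came from cultures exposed to 10 mg/L of the antibiotic for 15 days, and control samples from cultures without it. Both groups grew in darkness at 25 °C and 150 rpm in CZ-M1 medium with 30 g/L glucose, and 100 mL of each culture was harvested for RNA on day 15. A single strain, dose and day were compared, in whole cultures, where fewer cells and less RNA per cell cannot be told apart. The labels do not say whether the samples of a group were separate cultures, so the spread between them may be in part technical.

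C. zofingiensis is grown in the dark on glucose as a source of lipids and of the red carotenoid astaxanthin. Levofloxacin is a fluoroquinolone, which in bacteria acts on DNA gyrase and topoisomerase IV, the enzymes that relieve twist in DNA and separate its copies. Plastids of plants and algae keep a gyrase of bacterial descent. Nuclear genes are mostly transcribed each from a promoter of its own, but neighbours can share a promoter between them, lie in the same stretch of open chromatin, or be copies made by tandem duplication. In green algae, this species included, transcripts that carry more than a single reading frame have also been described. The files give IDs alone, without names or coordinates, so which of these applies to any pair of neighbours below was not tested, and no role is given to an ID. The order of the ID numbers was taken as the order of the genes. Cz18 IDs rise in steps of 10 within 13 number blocks, Cz18g00 to Cz18g14 with the numbers 02 and 07 unused, and the files do not say what a block stands for.

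Reads assigned to genes numbered 28482776 to 33005815 in the levofloxacin libraries and 29311743 to 36223195 in the control libraries. Cz18 IDs took 1.66%, 1.68% and 1.64% of them in levofloxacin replicates 1, 2 and 3, and 1.84%, 1.62% and 1.60% in control replicates 1, 2 and 3. Levels are given as CPM, the count per 1000000 reads of the library. At this depth 3 counts, the smallest number taken as detected, correspond to 0.0828 to 0.105 CPM. The control libraries differed from each other more than the levofloxacin libraries did, with a biological coefficient of variation over all IDs of 10.9% with levofloxacin and 24.9% in controls.

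Expression along Cz18 was uneven and in large part carried by a few genes. Levels of different genes were compared as FPKM, fragments per kilobase of gene and 1000000 reads, in means over all 6 libraries. The median Cz18 ID had 17.1 FPKM, with quartiles of 5.57 and 59.4 FPKM, beside a median of 18.5 FPKM over all IDs of the table. Of the 233 IDs, 31 reached 100 FPKM, 7 reached 500 FPKM and 25 stayed under 1 FPKM. The 10 highest IDs held 46.4% of the summed FPKM. The median level was 18.8 FPKM in levofloxacin samples and 16.7 FPKM in control samples.

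The 5 IDs with the highest FPKM lay in 4 separate number blocks. Cz18g00120 led with a mean of 1394 FPKM, followed by Cz18g09140 with 1149 FPKM, Cz18g13010 with 822 FPKM, Cz18g04090 with 783 FPKM and Cz18g04130 with 714 FPKM. Cz18g00120 was also the ID whose level differed most in absolute terms. It had 878, 1250 and 761 CPM in levofloxacin replicates 1, 2 and 3, against 4873, 1486 and 1969 CPM in control replicates 1, 2 and 3. All 3 controls were higher, control replicate 1 by far. The fitted log2 fold change was -1.62 ± 0.48 (SE), and -0.84 without control replicate 1. The ID passed the test, and it no longer did when control replicate 3 or any 1 levofloxacin library was left out, with limma on counts or on FPKM, or with the replicate number as a block.

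Cz18g00120 alone took 5.29%, 7.44% and 4.63% of the Cz18 reads in the levofloxacin libraries, against 26.5%, 9.18% and 12.3% in the control libraries. The summed level of all Cz18 IDs was 16600, 16810 and 16440 CPM in levofloxacin replicates 1, 2 and 3, against 18420, 16180 and 16030 CPM in control replicates 1, 2 and 3, and the groups overlapped. Without Cz18g00120 the sum was 15720, 15560 and 15680 CPM with levofloxacin, against 13550, 14700 and 14060 CPM in controls. The sums without this ID did not overlap, all 3 levofloxacin libraries being higher. The ID left out was that with the highest CPM in control replicate 1, so leaving it out lowered that library most. As the chromosome was also chosen for IDs higher with levofloxacin, nothing is read from these sums. The other 4 of the most abundant IDs did not pass edgeR's test, while DESeq2 called Cz18g04130 lower. Cz18g13010, for example, had 966, 860 and 883 CPM with levofloxacin, against 1208, 776 and 812 CPM in controls, at a log2 fold change of -0.11 ± 0.22 (SE) that became 0.19 without control replicate 1.

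**Figure D1:**
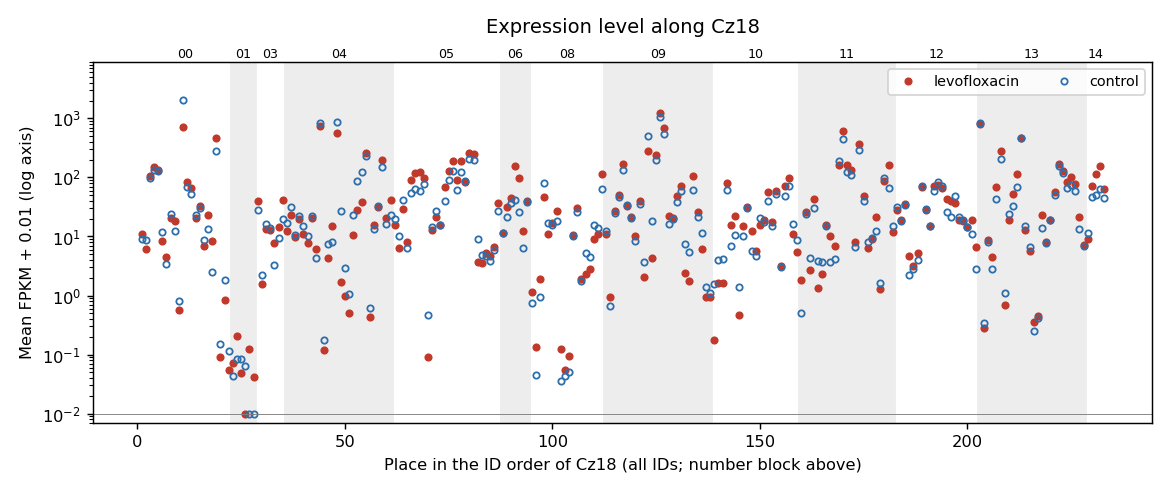
Mean FPKM of each of the 233 Cz18 IDs (log axis, 0.01 added so that values of 0 can be drawn) against its place in the ID order, with number blocks above; filled points are levofloxacin means and open points control means of 3 libraries. The highest control mean is that of Cz18g00120, with 718 FPKM in levofloxacin samples and 2070 FPKM in control samples, and the 6 IDs of the Cz18g01 block lie at the bottom in both groups.

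The least expressed part of the chromosome was the Cz18g01 block. Its 6 IDs, Cz18g01010 to Cz18g01060, had at most 4 counts in any library and were not tested. The 2 IDs nearest to it that also fell short, Cz18g00210 and Cz18g00230, had at most 10 and 3 counts in any library. A second low group was Cz18g08080 to Cz18g08100, 3 neighbours with at most 8 counts in any library. Coding lengths of these 11 IDs ran from 309 to 2322 bases, so the low counts were not confined to short genes. The other 5 untested IDs were Cz18g04100, Cz18g05090, Cz18g08020, Cz18g09270 and Cz18g13150, with at most 44 counts in any library. The untested IDs were chosen by the test's filter after their counts were seen.

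Across Cz18, more IDs were higher than lower with levofloxacin. An ID passed when its adjusted p in edgeR's quasi-likelihood test was under 0.05 over all 14236 tested IDs. Of the 217 tested Cz18 IDs, 42 (19.4%) were higher with levofloxacin, where 10.1% of all tested IDs were, and 25 (11.5%) were lower, where 12.1% of all tested IDs were. Since the share of higher IDs chose the chromosome, nothing is read from the first of these pairs of shares. In all 67 IDs that passed, every levofloxacin library lay on the same side of every control library. The same share was not taken for IDs that passed over the whole table, so it is not read as a trait of Cz18. Counting all IDs without overlap between the groups, passed or not, 67 were higher and 42 lower on Cz18, beside 22.6% and 20.0% of all tested IDs. The median log2 fold change over the 217 IDs was 0.08, beside 0.00097 over all tested IDs, and 125 of the 217 (57.6%) were above 0.

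In the median, changes were smaller among IDs that rose than among IDs that fell. The 42 that rose had a median log2 fold change of 0.72 and a range of 0.39 to 1.89. The 25 that fell had a median of -1.21 and a range of -4.11 to -0.39. Over all tested IDs the medians were 0.72 and -0.86. A change of less than 1.5-fold was found in 13 of the 42 and 8 of the 25. Over all tested IDs it was found in 437 of 1432 that rose and 430 of 1717 that fell. A change of at least 2-fold was found in 13 IDs that rose and 14 that fell, where the same rule took 2.51% and 5.06% of all tested IDs. The median level was 38.3 FPKM in IDs that rose, 13.2 FPKM in IDs that fell and 18.6 FPKM in IDs that did not pass. Over all tested IDs of the table the same medians were 30.2, 15.8 and 20.7 FPKM. Median coding lengths on Cz18 were 1017, 1341 and 1131 bases in the same order, beside 1053, 1320 and 1053 bases over all tested IDs.

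Control replicate 1 moved with these calls. It was the lowest control in 32 of the 42 Cz18 IDs that rose (76.2%) and in 57.6% of all 217 tested Cz18 IDs, while over the whole table it was lowest in 68.7% of the IDs that rose. It was the highest control in 15 of the 25 Cz18 IDs that fell (60.0%), beside 48.0% of IDs that fell over the whole table. Its part in the calls was not tested beyond leaving it out. Without it, 42 Cz18 IDs (19.3%) passed as higher and 29 (13.3%) as lower, where 12.2% and 13.1% of all tested IDs did. Of the 42 and the 29, 39 and 22 were IDs that also passed with all libraries.

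**Figure D2:**
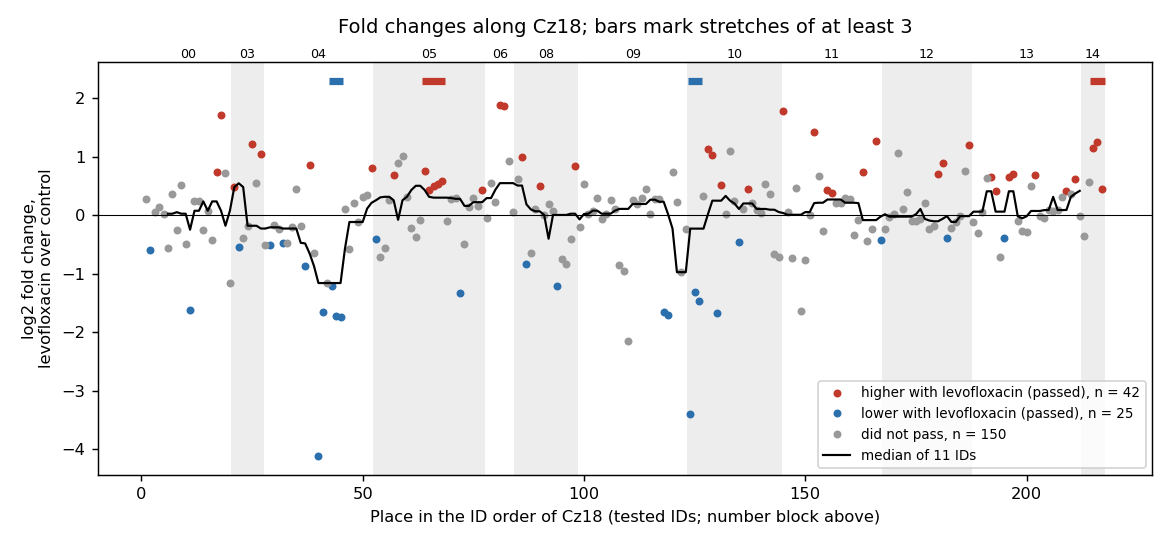
Fitted log2 fold change (levofloxacin over control) of the 217 tested Cz18 IDs against their place in the ID order, with the running median of 11 IDs as a line; red points rose, blue points fell, grey points did not pass, and bars at the top mark the stretches of at least 3 neighbours. The line is lowest, at -1.16, in the Cz18g04 block and highest, at 0.55, from the end of the Cz18g05 block to the start of the Cz18g08 block.

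Neighbours that rose together formed 2 stretches. A stretch is a run of at least 3 tested IDs, consecutive in number, that all passed in the same direction. On Cz18 8 IDs lay in higher stretches and 6 in lower ones, where 1.45% and 1.37% of all tested IDs did. The longest ran from Cz18g05130 to Cz18g05170, 5 short genes of 297 to 582 coding bases. Their summed level was 293, 294 and 308 CPM in levofloxacin replicates 1, 2 and 3, against 170, 230 and 200 CPM in control replicates 1, 2 and 3. The groups did not overlap for any of the 5 IDs, as for all IDs that passed, so their sum could not overlap either.

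All 5 rose by a similar and small amount, with a mean log2 fold change of 0.56. The highest fold change was that of Cz18g05130, with 39.2, 29.2 and 40.8 CPM with levofloxacin, against 16.7, 22.2 and 23.5 CPM in controls (log2 fold change 0.76 ± 0.16, SE). The smallest change was that of Cz18g05140, with 74.3, 76.2 and 70.7 CPM with levofloxacin, against 48.0, 59.6 and 51.4 CPM in controls (0.43 ± 0.10, SE). Cz18g05150, Cz18g05160 and Cz18g05170 lay between them at 0.51, 0.53 and 0.59. Control replicate 1 was the lowest control in all 5 IDs, and without it all 5 still passed, with a mean of 0.51. Without levofloxacin replicate 1 or without levofloxacin replicate 3 all 5 calls were lost, while the mean log2 fold change was 0.58 and 0.55. Without control replicate 3, 2 of the 5 passed, and without levofloxacin replicate 2, 1 passed.

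The second higher stretch closed the chromosome's numbering, at Cz18g14030, Cz18g14040 and Cz18g14050. Their sum was 442, 318 and 441 CPM with levofloxacin, against 178, 201 and 217 CPM in controls, and levofloxacin replicate 2 was the lowest of the 3 levofloxacin libraries. Cz18g14030 had 134, 91.5 and 138 CPM with levofloxacin, against 39.5, 56.4 and 63.8 CPM in controls (log2 fold change 1.14 ± 0.20, SE). Cz18g14040 had 198, 126 and 192 CPM with levofloxacin, against 56.8, 72.8 and 81.2 CPM in controls (1.25 ± 0.19, SE). Both more than doubled in the fit, with levofloxacin replicate 2 nearest to the controls. Cz18g14050 rose less, with 110, 101 and 111 CPM with levofloxacin, against 81.6, 71.5 and 72.0 CPM in controls (0.46 ± 0.13, SE). The call of Cz18g14050 was lost without any 1 library other than control replicate 1, and those of the other 2 IDs without levofloxacin replicate 1 or 3.

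The 2 lower stretches lay in the Cz18g04 and Cz18g10 blocks. Cz18g04170, Cz18g04180 and Cz18g04190, with 216, 501 and 285 coding bases, summed to 29.6, 28.3 and 24.8 CPM in levofloxacin replicates 1, 2 and 3, against 111, 62.8 and 80.4 CPM in control replicates 1, 2 and 3. Their mean log2 fold change was -1.55. Cz18g04170 was the lowest of the 3 in CPM, with 2.0, 2.36 and 2.4 CPM with levofloxacin, against 5.19, 4.45 and 5.53 CPM in controls (log2 fold change -1.21 ± 0.22, SE). Cz18g04180 had 15.0, 15.0 and 12.6 CPM with levofloxacin, against 58.1, 32.2 and 42.7 CPM in controls (-1.71 ± 0.25, SE). Cz18g04190 had 12.6, 11 and 9.74 CPM with levofloxacin, against 47.5, 26.1 and 32.2 CPM in controls (-1.74 ± 0.27, SE). In these last 2 IDs the controls stood in the same order, replicate 1 highest and replicate 2 lowest. Without control replicate 1 all 3 IDs still passed with a mean of -1.31, and without levofloxacin replicate 1 or 3 the calls were lost with means of -1.57 and -1.51.

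The same region was wider when overlap alone was asked for. All 7 IDs from Cz18g04130 to Cz18g04190 were lower in every levofloxacin library than in every control library, and 5 of them passed. The run starts with an abundant ID, Cz18g04130, with 852, 885 and 797 CPM with levofloxacin, against 1611, 1007 and 1175 CPM in controls, a log2 fold change of -0.65 ± 0.22 (SE) that did not pass. It was called lower by DESeq2 and, in edgeR, without control replicate 2, at -0.83. Next to it Cz18g04140 had the lowest fold change of the chromosome. It had 1.37, 0.667 and 0.780 CPM with levofloxacin, against 31.6, 4.89 and 8.44 CPM in controls (log2 fold change -4.11 ± 0.79, SE). Control replicate 1 was far above the other controls, and without it the value was -2.84 and the ID still passed. Without any 1 levofloxacin library, and with limma-voom, Cz18g04140 did not pass. Cz18g04150, at 0.421, 0.303 and 0.406 CPM with levofloxacin, against 1.23, 1.05 and 1.17 CPM in controls, also fell. Cz18g04160, at 0.211, 0.0909 and 0.218 CPM with levofloxacin, against 0.478, 0.331 and 0.320 CPM in controls, was close to the detection floor and did not pass. These last 2 IDs were chosen after their values were seen, because they complete the run.

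The other lower stretch opened the Cz18g10 block at low levels. Cz18g10010, Cz18g10020 and Cz18g10030 summed to 4.53, 4.30 and 4.65 CPM with levofloxacin, against 25.9, 9.33 and 11.4 CPM in controls. The excess in control replicate 1 came mainly from Cz18g10010, with 0.772, 0.273 and 0.624 CPM with levofloxacin, against 13.2, 1.27 and 1.60 CPM in controls. Its log2 fold change was -3.39 ± 1.02 (SE). Without control replicate 1 it was -1.37 and did not pass, nor did it without control replicate 3 or any 1 levofloxacin library, or with limma on counts or on FPKM. Cz18g10020 had 0.913, 0.606 and 0.905 CPM with levofloxacin, against 1.98, 1.96 and 1.89 CPM in controls (-1.32 ± 0.28, SE). Cz18g10030 had 2.84, 3.42 and 3.12 CPM with levofloxacin, against 10.8, 6.10 and 7.89 CPM in controls (-1.46 ± 0.28, SE). For these 2 IDs the controls were closer together than for Cz18g10010, and both still passed without control replicate 1. The mean log2 fold change of the stretch was -2.05 with control replicate 1 and -1.26 without it. DESeq2, limma and a filter of at least 10 counts in every library each kept 2 of the 3 calls. DESeq2 gave no adjusted p for Cz18g10010, so the ID was not judged there. The filter left out Cz18g10010, with 9 counts in levofloxacin replicate 2. The mean of -1.39 under the filter therefore covered Cz18g10020 and Cz18g10030 alone. By limma on log2(FPKM + 1) the mean of the 3 IDs was -0.93. Without control replicate 3, 1 of the 3 IDs passed, and without any 1 levofloxacin library the 3 calls were lost.

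**Figure D3:**
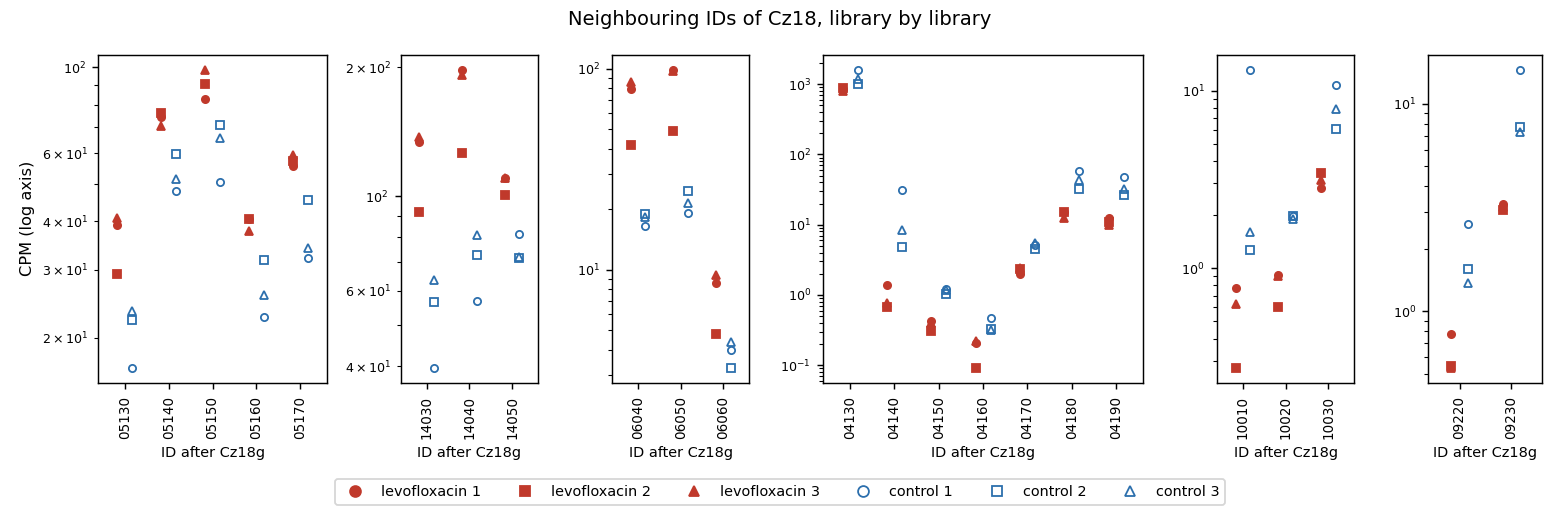
CPM (log axis) of neighbouring Cz18 IDs in each library, 1 panel per run; filled red symbols are levofloxacin and open blue symbols control, with circles, squares and triangles for replicates 1, 2 and 3. In the 3 panels on the left levofloxacin libraries lie above controls, in the 3 on the right below them, and control replicate 1 is the far control at Cz18g04140 and Cz18g10010.

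The largest increases were outside those stretches, in short runs and single IDs. Cz18g06040 had the highest fold change of the chromosome, with 79.0, 41.8 and 85.9 CPM with levofloxacin, against 16.4, 19.0 and 18.3 CPM in controls (log2 fold change 1.89 ± 0.24, SE). Its neighbour Cz18g06050 had 99.3, 49.3 and 97.8 CPM with levofloxacin, against 19.1, 24.7 and 21.5 CPM in controls (1.87 ± 0.25, SE). In both IDs levofloxacin replicate 2 stood between the other levofloxacin libraries and the controls, and the controls were close together. The next ID, Cz18g06060, followed the same order at a lower level, with 8.57, 4.76 and 9.42 CPM with levofloxacin, against 3.96, 3.23 and 4.34 CPM in controls, and did not pass (0.92 ± 0.29, SE). Cz18g06060 was chosen after its values were seen, as the neighbour of the pair.

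Cz18g00190 came next among IDs averaging 5 CPM or more, with 22.7, 17.5 and 20.4 CPM with levofloxacin, against 4.84, 8.06 and 5.04 CPM in controls (log2 fold change 1.72 ± 0.19, SE). Cz18g00190, Cz18g06040 and Cz18g06050 passed in all 16 alternative fits and settings, the 6 that each left out a library included. Cz18g00190 lay between Cz18g00180, which also rose (0.75 ± 0.13, SE), and the abundant Cz18g00200. Cz18g00200 had 1091, 1301 and 1063 CPM with levofloxacin, against 376, 970 and 727 CPM in controls, and at 0.72 ± 0.27 (SE) did not pass. Cz18g00180 and Cz18g00200 were chosen after their values were seen, as the neighbours of Cz18g00190. At lower counts Cz18g11010 rose by as much, with 2.77, 1.21 and 2.28 CPM with levofloxacin, against 0.716, 0.690 and 0.349 CPM in controls (1.78 ± 0.42, SE), and was likewise chosen after its values were seen.

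Cz18g11220 and Cz18g14040 completed the 5 highest fold changes among IDs of at least 5 CPM. Cz18g11220 had 233, 332 and 306 CPM with levofloxacin, against 68.3, 155 and 131 CPM in controls (log2 fold change 1.28 ± 0.26, SE). Its levels differed within both groups, replicate 1 being the lowest library of each, and the call was lost without any 1 levofloxacin library. Among IDs of at least 5 CPM, the lowest fold changes beside those of Cz18g04140, Cz18g04180, Cz18g04190 and Cz18g00120 belonged to Cz18g09230. It had 3.30, 3.09 and 3.18 CPM with levofloxacin, against 14.6, 7.76 and 7.28 CPM in controls (-1.70 ± 0.33, SE). Without control replicate 1 Cz18g09230 was at -1.23 and still passed, and without any 1 levofloxacin library it did not. The 5 CPM are a mean over all 6 libraries, so an ID that fell could reach them through its controls alone. This held for Cz18g04140, averaging 0.939 CPM with levofloxacin and 15.0 CPM in controls. It also held for Cz18g09230, averaging 3.19 and 9.89 CPM.

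Changes along Cz18 were in part shared with the next ID and in part not. Of the 67 IDs that passed, 35 (52.2%) had no neighbour that passed in the same direction, 20 of them higher and 15 lower, where this held for 62.1% of IDs that passed over the whole table. Among the 216 pairs of neighbouring tested IDs, 13 pairs rose together, 6 fell together and 9 had 1 ID that rose beside 1 that fell. Pairs in the same direction made up 8.80% of the Cz18 pairs and 4.78% of all pairs, and opposite pairs 4.17% and 1.80%, shares that rise with the number of calls. The sharpest contrast between neighbours was at Cz18g10060, Cz18g10070 and Cz18g10080, with log2 fold changes of 1.03, -1.67 and 0.52. Other such pairs were Cz18g08030 and Cz18g08040, at 1.00 and -0.82, Cz18g04110 and Cz18g04120, at -0.87 and 0.86, and Cz18g11220 and Cz18g11230, at 1.28 and -0.42. The IDs of these pairs other than Cz18g11220 and Cz18g08030 were chosen after their values were seen. The longest run without a call was 19 IDs, Cz18g09010 to Cz18g09190, with log2 fold changes of -2.15 to 0.53. At an unadjusted p under 0.05 edgeR had 1 of these 19 IDs higher and 2 lower, and DESeq2 called 2 of them, both lower.

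Runs of at least 2 neighbours that passed in the same direction numbered 9 higher with 22 IDs and 4 lower with 10 IDs, where 3.83% and 4.56% of all tested IDs lay in such runs. The pairs that rose, besides those already described, were Cz18g10050 with Cz18g10060, Cz18g11110 with Cz18g11120, Cz18g12130 with Cz18g12140, Cz18g13050 with Cz18g13060 and Cz18g13090 with Cz18g13100. Cz18g11110 and Cz18g11120 summed to 284, 299 and 292 CPM with levofloxacin, against 201, 213 and 215 CPM in controls, a modest rise with little spread in either group. Cz18g12130 and Cz18g12140 summed to 131, 121 and 138 CPM with levofloxacin, against 68.0, 72.5 and 81.7 CPM in controls. Cz18g13050 and Cz18g13060 summed to 166, 166 and 177 CPM with levofloxacin, against 105, 127 and 111 CPM in controls. Cz18g13090 and Cz18g13100 summed to 123, 128 and 128 CPM with levofloxacin, against 69.6, 89.3 and 68.5 CPM in controls. Each of these IDs passed and had no overlap between the groups, so the sums could not overlap and add nothing to the calls. The remaining pair that fell was Cz18g09220 with Cz18g09230, which summed to 4.07, 3.64 and 3.71 CPM with levofloxacin, against 17.3, 9.36 and 8.65 CPM in controls. These pairs were chosen after their values were seen.

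By the looser rule of no overlap, passed or not, 7 higher runs of at least 3 IDs (24 IDs) and 2 lower runs (10 IDs) were found, where 5.80% and 4.31% of all tested IDs lay in such runs. An example with no call in it was Cz18g09130, Cz18g09140 and Cz18g09150, with group means of at least 195 FPKM. They summed to 1264, 1321 and 1401 CPM with levofloxacin, against 928, 1172 and 1203 CPM in controls. Control replicate 1 was the low library of the 3 controls, and the mean log2 fold change was 0.25. By edgeR none of the 3 had an unadjusted p under 0.05, and DESeq2 and limma-voom each gave 1 such ID and no call.

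A running median over 11 IDs was lowest at -1.16, a value shared by 6 windows, the first of them Cz18g04080 to Cz18g04190, that together reach to Cz18g04240. The shared value is the fold change of Cz18g04160, which is the middle ID by fold change in each. That ID was close to the detection floor and did not pass. Each of the 6 windows held 5 or 6 IDs that fell and at most 1 that rose. Neither Cz18g04080 itself (0.44 ± 0.27, SE) nor the abundant Cz18g04090 (-0.18 ± 0.12, SE) passed. The highest median, 0.55, was shared by 4 windows, the first of them Cz18g05250 to Cz18g08030, that together reach to Cz18g08060. Each held 3 or 4 IDs that rose and at most 1 that fell. Cz18g05250 did not pass (0.16 ± 0.17, SE), and Cz18g08030 rose (1.00 ± 0.23, SE), a call lost without control replicate 3 or any 1 levofloxacin library. With 7 IDs per window the extremes, each shared by 2 windows, lay within Cz18g04130 to Cz18g04200, at -1.65, and Cz18g06030 to Cz18g08040, at 0.92. With 21 they lay within Cz18g04080 to Cz18g05050, at -0.55 in 3 windows, and Cz18g04220 to Cz18g05200, at 0.32 in 4 windows. The low region thus kept its place over the 3 window sizes, whose windows share IDs there, while the high one lay elsewhere with 21 IDs. Of the 207 windows of 11 IDs, 142 had a median above 0.

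By number block the same contrast appeared. In the Cz18g04 block 2 of 25 tested IDs rose and 8 fell, with a median log2 fold change of -0.47. In the Cz18g05 block next to it 7 of 25 rose and 2 fell, with a median of 0.28. The summed level of the Cz18g04 block was 2496, 2577 and 2340 CPM with levofloxacin, against 3365, 2769 and 2898 CPM in controls. That of the Cz18g05 block was 1534, 1374 and 1549 CPM with levofloxacin, against 1027, 1281 and 1216 CPM in controls. Both sums differed without overlap, in opposite directions, but abundant IDs that did not pass weighed in both. In the Cz18g04 block, Cz18g04130 averaged 845 CPM with levofloxacin and 1264 CPM in controls, and Cz18g04090 953 and 1048 CPM. In the Cz18g05 block, Cz18g05070 had 204, 104 and 195 CPM with levofloxacin, against 49.7, 74.6 and 118 CPM in controls. Its groups overlapped, as did those of Cz18g05060. The small Cz18g06 and Cz18g14 blocks, with 7 and 5 tested IDs, had medians of 0.55 and 0.57. The Cz18g13 block had 7 of 25 IDs that rose and 1 that fell, and the Cz18g11 block 6 of 23 and 1. The Cz18g10 block had 4 that rose and 5 that fell among 21.

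Within the levofloxacin group, replicate 2 was set apart at particular places along Cz18. An ID was counted when replicate 2 had less than 0.7 of the CPM of each of the other levofloxacin libraries, a threshold chosen after the values were seen. On Cz18 23 of 217 tested IDs met it (10.6%), beside 4.43% of all tested IDs. The count compares levofloxacin libraries alone, but these also entered the comparison that chose the chromosome, and IDs that rose met the threshold more often, 16.7% of them on Cz18 and 6.01% over the whole table. Of the 23, 16 had a neighbour that also met it, beside 194 of 631 over the whole table. They lay in 6 runs, Cz18g05060 to Cz18g05070, Cz18g06040 to Cz18g06060, Cz18g10010 to Cz18g10020, Cz18g10050 to Cz18g10070, Cz18g10200 to Cz18g11010, and Cz18g14020 to Cz18g14040. Of the 23, 7 rose and 3 fell in the comparison with controls, beside 86 and 67 of the 631. Nothing is read from these calls, since 19.4% of all tested Cz18 IDs rose.

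**Figure D4:**
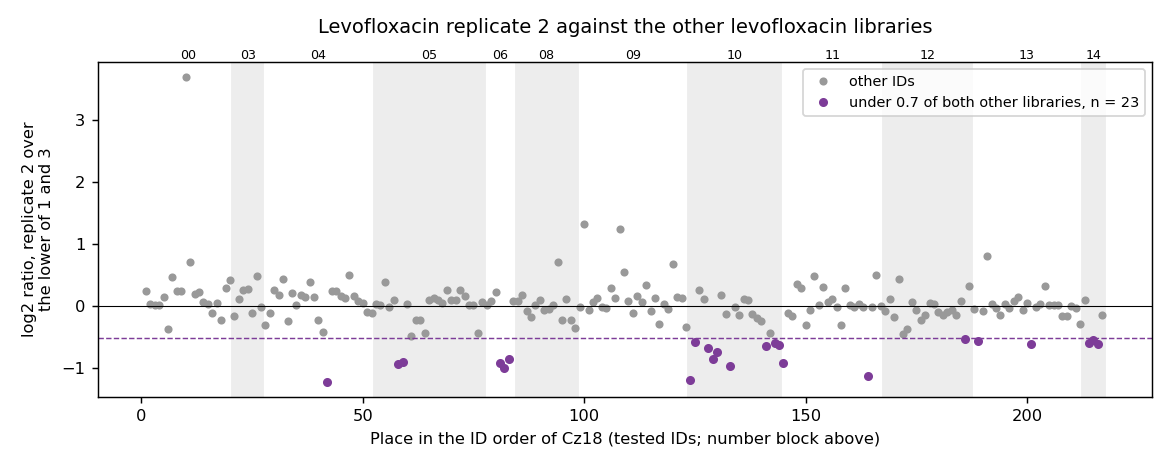
Log2 ratio of the CPM in levofloxacin replicate 2 to the lower of levofloxacin replicates 1 and 3, for the 217 tested Cz18 IDs in ID order; the dashed line is the ratio of 0.7 and purple points are the 23 IDs under it. Runs of purple points stand at Cz18g06040 to Cz18g06060 and in the Cz18g10 and Cz18g14 blocks.

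Some neighbours in these runs differed between libraries together, and others did not. Cz18g05060 had 134, 68.1 and 129 CPM with levofloxacin, against 34.8, 52.8 and 84.6 CPM in controls. Cz18g05070 had 204, 104 and 195 CPM with levofloxacin, against 49.7, 74.6 and 118 CPM in controls. The groups overlapped in both IDs, neither passed, and the libraries stood in the same order in both. The ratio of Cz18g05070 to Cz18g05060, in CPM and not corrected for length, stayed between 1.40 and 1.53 over the 6 libraries. The same ratio was 1.14 to 1.30 for Cz18g06050 to Cz18g06040, 1.27 to 1.48 for Cz18g14040 to Cz18g14030 and 3.10 to 3.86 for Cz18g10060 to Cz18g10050. In the other 6 adjacent pairs of these runs the ratio was less steady, its highest value being 1.60 times its lowest for Cz18g14020 to Cz18g14030 and 2.40 to 14.8 times in the rest. For Cz18g10060 to Cz18g10070 it ran from 1.14 to 13.7.

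Cz18g10050 and Cz18g10060 both rose. Cz18g10050 had 8.92, 5.03 and 8.02 CPM with levofloxacin, against 2.70, 3.20 and 3.76 CPM in controls (log2 fold change 1.14 ± 0.25, SE). Cz18g10060 had 30.2, 15.6 and 28.2 CPM with levofloxacin, against 10.4, 12.1 and 12.5 CPM in controls (1.03 ± 0.23, SE). Next to them Cz18g10070, an ID of 4662 coding bases, fell, with 3.16, 1.24 and 2.06 CPM with levofloxacin, against 9.14, 3.76 and 6.52 CPM in controls (-1.67 ± 0.45, SE). All 3 IDs were lowest in replicate 2 among the levofloxacin libraries, although they changed in opposite directions relative to controls. The IDs of these paragraphs on replicate 2, other than Cz18g06040, Cz18g06050, Cz18g10010, Cz18g10020, Cz18g14030 and Cz18g14040, were chosen after their values were seen. What sets replicate 2 apart at these IDs was not tested.

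Set beside the other 18 chromosomes, Cz18 had the fewest IDs, 233 where the others had 270 to 1264. The share of its tested IDs that rose, which chose it, was 19.4% where the others ran from 7.39% on Cz16 to 13.7% on Cz17. The share that fell, 11.5%, was within the range of the others, 9.67% to 15.2%. IDs in stretches made up 6.45% of its tested IDs, where the others had up to 6.22%, again with Cz17 next. Pairs of neighbours that passed in the same direction made up 8.80% of its pairs, where the others had 2.63% to 7.92%. These shares rise with the number of calls, so they follow in part from how Cz18 was chosen.

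**Figure D5:**
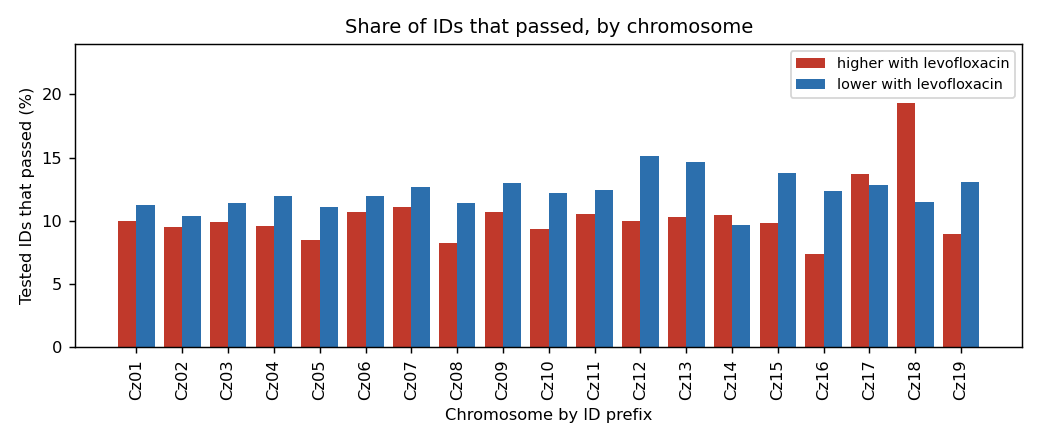
Share of tested IDs that rose (red) and fell (blue) with levofloxacin on each of the 19 chromosomes, in percent. The share that rose on Cz18, by which the chromosome was chosen, is 19.4%, and its share that fell, 11.5%, lies among those of the other chromosomes.

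Likeness of neighbours was also described without calls. The correlation of log2 fold changes of adjacent tested IDs was 0.33 over the 216 Cz18 pairs, and 0.09 to 0.30 on the other chromosomes. For the deviation of levofloxacin replicate 2 from the other levofloxacin libraries it was 0.36, and 0.09 to 0.39 elsewhere. For the difference between control replicates 1 and 2 it was 0.21, and 0.09 to 0.27 elsewhere. The points of each correlation share their libraries and each ID enters as a neighbour on both sides, so these are descriptions across genes. The fold changes also come from the comparison that chose Cz18, so nothing is read from 0.33 being above the other chromosomes. Spread between replicates was taken as the SD of log2(CPM + 1) over the 3 libraries of a group. Its median over Cz18 IDs was 0.109 in levofloxacin libraries and 0.260 in control libraries. The levofloxacin value lay within the range of the other chromosomes, 0.102 to 0.125, and the control value above theirs, 0.205 to 0.251. Control libraries also entered the comparison that chose Cz18, so nothing is read from its control value being the highest.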

How the data were processed

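The deposited whole-number read counts and the FPKM values deposited by the authors were used for 6 libraries (3 per group). The submitters' processing notes list HISAT2 2.0.6 with HTSeq 0.6.1; build, annotation and strandedness are not stated there, so reads of overlapping genes or close copies may be mixed. The members and lists were chosen with earlier results of these data known. Counts of all 15364 IDs were fitted with edgeR 4.0.16 in R 4.3.3, with 14236 IDs kept by filterByExpr. TMM scaling and a quasi-likelihood F test over all 6 libraries were used, with Benjamini-Hochberg adjustment at a threshold of 0.05. The procedure was tested on simulated data with the same spread in both groups, unlike the libraries here. Each SE is |log2 fold change| over the root of its F. CPM uses raw column totals, while fold changes use TMM-scaled ones. Counts and FPKM together gave a coding length for each Cz18 ID, all 233 being multiples of 3. Named IDs are those in stretches, the 5 highest and 5 lowest fold changes among IDs that passed with at least 5 CPM and no overlap, the 5 highest in FPKM, and the ends of the extreme 11-ID windows; IDs outside this rule are marked. Alternatives were other normalisations, filters, DESeq2 1.42.0, limma 3.58.1 on counts and FPKM, a replicate block, a stricter threshold and leaving out each library.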

Additional observations from a re-analysis of the deposited data

How the results depend on the processing

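The median log2 fold change of Cz18 was positive in every alternative, 0.07 to 0.16, and no ID that passed changed sign in any of them. The median over all tested IDs ran from -0.0068 without control replicate 1 to 0.057 with limma on log2(FPKM + 0.1). The alternatives reuse the libraries by which Cz18 was chosen for higher IDs, so nothing is read from the positive sign. Counts of calls depended on single libraries. Leaving out 1 library gave 5 to 51 IDs higher, 0 to 31 lower and 0 to 20 in stretches. Over all tested IDs the same fits gave 0.711% to 14.3% higher and 0.962% to 16.4% lower. The highest counts came without control replicate 2. The lowest counts came without levofloxacin replicate 1 and without levofloxacin replicate 3, where edgeR called 5 IDs higher (2.27%) and 0 lower, with 32 and 30 IDs lower at an unadjusted p under 0.05; of all tested IDs 0.746% and 0.711% were then higher and 0.983% and 0.962% lower. Without control replicate 3 the counts were 20 higher, 13 lower and 3 in stretches (3.83% higher and 4.34% lower over all tested IDs), while leaving out levofloxacin replicate 2 gave 16, 4 and 6 (3.33% and 2.71%). An adjusted p under 0.01 gave 9 higher, 3 lower and 0 in stretches (1.31% higher and 1.73% lower over all tested IDs). limma on log2(FPKM + 0.1) and on log2(FPKM + 1) each gave 12 lower, where 8.76% and 8.56% of all tested IDs were lower. IDs in stretches numbered 27 with DESeq2, 32 for runs of at least 2, 5 for runs of at least 4 and 34 by overlap alone. DESeq2 called 13.75% of all tested IDs higher and 16.07% lower. For runs of at least 2 and by overlap alone, the shares of all tested IDs are given above. For the other alternatives the share of all tested IDs in stretches was not taken. The replicate block gave 46 higher, 19 lower and 23 in stretches (9.54% higher and 10.7% lower over all tested IDs). Deviations of same-numbered libraries correlated at 0.16, 0.05 and 0.04. Differently numbered libraries were not compared in this way, and the labels do not say whether equal numbers share a batch. Whether the numbers pair the samples is therefore not known. Cz18g13010, which did not pass at -0.11, ranged from -0.27 to 0.19 over the fits that each left out a library, with 0.19 without control replicate 1. A break of stretches at each change of number block, added after seeing the data, left 14 IDs in them. The causes of these shifts were not tested. Counts near the floor of 3 limit the Cz18g01 block and Cz18g04160.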
